A study of Arabidopsis thaliana with 16 samples.

Results

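The transcripts described here are 40 genes of moderate level in wild type whose signal was highest, relative to its spread, in the first 6 psag arrays. They were taken from 3439 probes, of which 692 list a single gene and 346 of those had a mean deposited WT intensity of at least 0.2 and under 2. Each array was divided by its own 75th percentile, which gives the scaled intensity used below, and log2(scaled intensity + 0.04) was compared between psag replicates 1 to 6 and WT replicates 1 to 8. The genes were chosen by the difference of these means divided by its standard error, without pooling the variances. The 45 highest statistics included 5 genes that the rule leaves out (AT5G52810, OTP70, SIS, CRR21 and the histone H3 gene AT5G65360), and the other 40 are the genes described here. Which related genes a probe can also bind was not known, and levels are not compared between genes.

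Both genotypes of Arabidopsis thaliana, wild type (WT) and the psag mutant, were of ecotype Columbia 0, and the mutant's photosystem I lacks the protein PSI-G. The 8 WT and 8 psag samples of total RNA were each measured on 1 array. The labels give no age, tissue, light condition or allele, and whether replicates were separate plants is not stated. No probe was named as PSAG, so the genotype labels could not be checked by the mutated gene. In such bulk RNA, fewer cells of a type and less RNA per cell cannot be told apart, and of 8 marker loci for senescence, defence and dehydration 0 had a probe of their own.

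Photosystem I uses light to pass electrons from plastocyanin to ferredoxin at the stromal side of the thylakoid membrane. PSI-G is a small nuclear-encoded membrane subunit at the edge of the complex, near the light-harvesting antenna. Plants tune nuclear transcripts to the state of the photosynthetic electron transport chain through redox and metabolite signals, and these signals reach genes of chloroplast function as well as genes of general metabolism, translation and defence.

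The arrays differed in ways that touch these genes. The 75th percentile ran from 0.430 to 0.730 and the sum of intensities from 2314 to 3460, both lowest on psag replicates 7 and 8. Averaged as a pair, these 2 arrays correlated with the other pairs of neighbouring replicates at 0.817 to 0.855 over all probes, while the other pairs correlated with each other at 0.924 to 0.978. Dim probes also differed: the 25th percentile was 0.102 to 0.134 of the 75th on WT replicates 1 to 6, 0.158 to 0.167 on WT replicates 7 and 8, 0.153 to 0.185 on psag replicates 1 to 6 and 0.136 to 0.144 on psag replicates 7 and 8. After quantile normalization, which gives every array the same distribution, the same rule took 37 of the 40 genes. Results are therefore given separately for psag replicates 1 to 6, which chose the genes, and for replicates 7 and 8, which did not.

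The choice itself set the difference between WT and psag replicates 1 to 6, so that difference is described and not tested. The 40 genes were 1.19-fold to 2.81-fold higher in psag replicates 1 to 6 on the log2(scaled intensity + 0.04) scale, with a median of 1.46-fold. A difference above 2-fold was seen for 3 of them, AT5G11650, AT4G33540 and AT4G05070. The statistic ran from 14.4 for AT5G11650 to 3.25 for AT5G49120. Just inside the limit were AT2G37880 at 3.31 and AT2G48130 at 3.31, and just outside it were AT5G64150 at 3.23, AT3G04560 at 3.08 and AILP1 at 3.07. The limit fell among genes with nearly the same statistic.

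The groups did not overlap for 14 of the 40 genes, where psag replicates 1 to 6 all lay above all 8 WT arrays. The background over all probes was 3.69%, and nothing is read from this count because the same arrays chose the genes. The remaining 26 genes had at least 1 psag array of the first 6 at or below the highest WT array. Compared array by array with WT of the same number, 35 genes were higher in all 6 psag arrays, 4 in 5 arrays and AT5G49840 in 4. The same arrays chose the genes, so nothing is read from these counts either. Whether numbers pair the samples is not given by the labels. None of the 40 was listed at 0 on any of the 16 arrays.

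**Figure D1:**
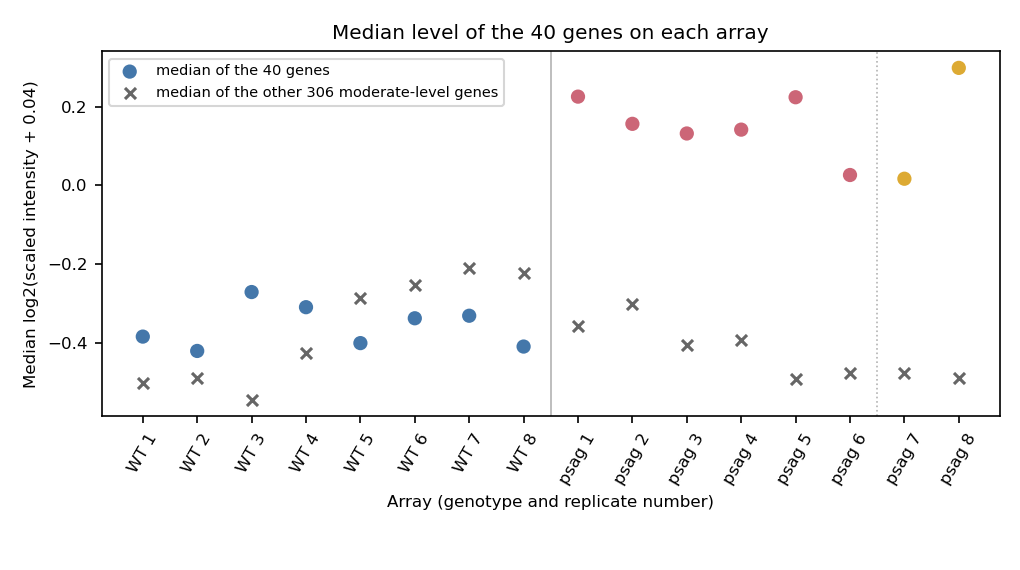
Median log2(scaled intensity + 0.04) on each array of the 40 genes (circles, blue for WT, red for psag replicates 1 to 6, yellow for psag replicates 7 and 8) and of the other 306 single-gene probes of moderate level (crosses). The 40 genes lie between -0.42 and -0.27 in WT, and between 0.02 and 0.30 on all 8 psag arrays.

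As the plot of medians by array shows, the 40 genes together had a median log2 level of -0.42 to -0.27 on the WT arrays and 0.03 to 0.23 on psag replicates 1 to 6. Psag replicate 7 was at 0.02 and replicate 8 at 0.30. The other 306 genes of moderate level had medians of -0.54 to -0.21 in WT and -0.49 to -0.30 on psag replicates 1 to 6, which overlap. Individual genes did not all follow the median on replicates 7 and 8. Above their own WT mean were 39 or 40 of the 40 genes on each of the first 6 psag arrays. The same arrays chose the genes, so that count follows from the choice. On replicate 7 the count was 26 and on replicate 8 it was 24. The mean of replicates 7 and 8 was above that of WT for 57.5% of the 40 genes. This share was 49.3% for all probes and 46.7% for the other 306 genes of moderate level.

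Among enzymes of metabolism, AT5G11650 had the largest statistic. It encodes an alpha/beta hydrolase of the monoacylglycerol lipase family, which releases fatty acids from monoglycerides. Here and below, roles are background and do not come from the deposited files. Its scaled intensity was 0.952 to 1.72 on the WT arrays (median 1.21) and 3.18 to 3.61 on psag replicates 1 to 6 (median 3.23). The last 2 psag arrays, replicates 7 and 8, were at 1.77 and 1.94. All 8 psag arrays were above all WT arrays, with replicates 7 and 8 just above WT replicate 6. On the log2 scale AT5G11650 was 0.34 ± 0.26 in WT (SD, n = 8) and 1.75 ± 0.09 in psag replicates 1 to 6 (SD, n = 6), a 2.67-fold difference.

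AT4G27250 encodes a reductase-like protein of the Rossmann fold, related to dihydroflavonol reductase of flavonoid synthesis. On WT arrays it lay between 1.68 and 2.17 with a median of 1.98, and on psag replicates 1 to 6 between 3.38 and 4.30 with a median of 3.79. The first 6 psag arrays were well apart from WT, but replicate 7, at 2.18, and replicate 8, at 1.89, lay at the WT level.

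AT2G35390 encodes a phosphoribosyl pyrophosphate synthetase, which makes the activated ribose used for nucleotides, histidine and tryptophan. WT arrays read 0.849 to 1.20 (median 0.986) and psag replicates 1 to 6 read 1.27 to 1.88 (median 1.64), without overlap. On replicates 7 and 8 it read 0.312 and 0.210, below every other array of both genotypes. Of the 5 loci listed for this enzyme family, 2 had a probe of their own, and in the comparison of psag replicates 7 and 8 with WT 1 of these, AT2G35390, passed as lower and 0 as higher. The log2 difference in that comparison was -1.79 for AT2G35390 and 0.49 for AT2G44530, the other locus, which did not pass (limma, adjusted p = 0.811). With all psag arrays the differences were 0.06 and 0.78, and neither passed.

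ATSPS4F, a sucrose-phosphate synthase, catalyses the committed step of sucrose synthesis from Calvin cycle products. It measured 1.22 to 1.80 in WT (median 1.5), 1.78 to 2.49 on psag replicates 1 to 6 (median 1.96), and 2.41 and 2.0 on replicates 7 and 8. Among the psag arrays only replicate 1 fell inside the WT range, below WT replicate 2. The difference for ATSPS4F was 0.46 with the first 6 psag arrays and 0.56 with the other 2 on the log2 scale.

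AT1G17160 encodes a plastid ribokinase of the pfkB family, which phosphorylates free ribose. In WT it ranged from 1.61 to 2.45 (median 1.85), and on psag replicates 1 to 6 from 2.28 to 2.68 (median 2.62). These ranges overlapped through WT replicate 6 alone. Replicates 7 and 8, at 1.92 and 1.54, lay within or below the WT range.

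AT1G24040 encodes a plastid acetyltransferase of the GNAT family. It was the steadiest of these enzymes in WT, with 1.03 to 1.15 (median 1.09), against 1.08 to 1.43 (median 1.36) on psag replicates 1 to 6. Psag replicate 2 lay inside the WT range and the other 5 lay above it. Far above both were replicates 7 and 8, at 3.42 and 2.33.

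AT4G33540 encodes a protein of the metallo-beta-lactamase family, a fold shared by many hydrolases. Its WT arrays spread from 0.267 to 1.58 (median 1.24), because WT replicates 5 and 6, at 0.630 and 0.267, were low. Psag replicates 1 to 6 lay between 1.71 and 2.56 (median 2.28), and replicates 7 and 8 were at 4.50 and 5.05. Every psag array was above every WT array. Between pairs of the same numbers, the log2 difference was 0.91 for replicates 1 and 2, 0.88 for 3 and 4, 2.23 for 5 and 6 and 1.64 for 7 and 8, so the low WT pair raised 1 of the 4 values.

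**Figure D2:**
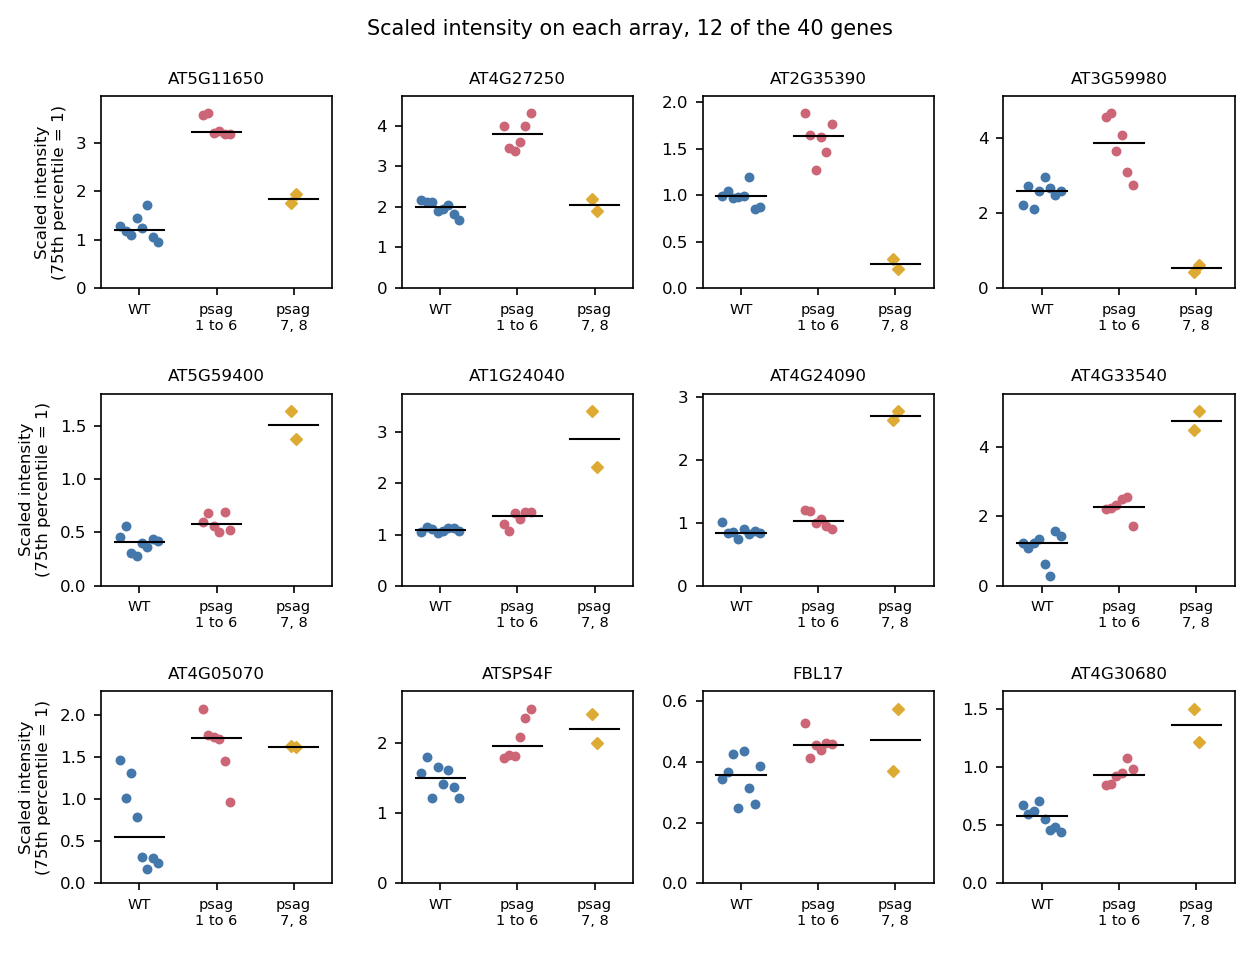
Scaled intensity (array's 75th percentile = 1, linear axis from 0) of 12 of the 40 genes on each array, in order of replicate number within WT (blue), psag replicates 1 to 6 (red) and psag replicates 7 and 8 (yellow diamonds), with black lines at the medians. AT2G35390 and AT3G59980 are high on the first 6 psag arrays and lowest on the last 2, while AT5G59400, AT1G24040 and AT4G24090 are highest on the last 2.

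AT3G59980 encodes a protein with an oligonucleotide-binding fold of the kind found in tRNA-binding factors. It had 2.09 to 2.96 in WT (median 2.58) and 2.73 to 4.64 on psag replicates 1 to 6 (median 3.86), and overlapped WT through psag replicate 6. It had 0.428 and 0.618 on replicates 7 and 8, the lowest of all 16 arrays. The plot by array shows both shifts.

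AT4G30680 encodes a protein with the MA3 domain, which in other proteins binds the helicase of translation initiation. WT arrays gave 0.444 to 0.706 (median 0.576), psag replicates 1 to 6 0.851 to 1.08 (median 0.937) and replicates 7 and 8 1.51 and 1.22. The 3 sets of arrays did not overlap each other.

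AT3G27550 encodes a protein of the CRM family, whose members bind RNA and serve intron splicing in plant organelles. Its scaled intensity was 0.297 to 0.489 (median 0.421) in WT and 0.527 to 0.781 (median 0.685) on psag replicates 1 to 6. At 0.180 and 0.164, replicates 7 and 8 were below all other arrays, as for AT3G59980.

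AT3G07790 encodes a relative of the human spliceosome protein DGCR14. The WT range was 0.509 to 0.652 (median 0.540), and psag replicates 1 to 6 lay above it at 0.716 to 1.02 (median 0.848). Replicate 7, at 0.685, was above all WT arrays and replicate 8, at 0.617, was not. AT4G30150, a relative of the yeast ribosome assembly factor Urb2, had 0.25 to 0.710 in WT (median 0.487) and 0.784 to 1.07 on psag replicates 1 to 6 (median 0.820). Its values of 0.341 and 0.305 on replicates 7 and 8 were inside the WT range. The zinc finger gene AT5G63830 was higher by 0.67 on the log2 scale with psag replicates 1 to 6, and AT3G12930, of the plastid Iojap-related family that binds the large ribosomal subunit, by 0.54. For AT3G12930 replicates 7 and 8 were at 1.41 and 1.34, above the WT range of 0.469 to 0.953.

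AT5G59400 encodes a relative of PGRL1, the thylakoid protein that takes part in cyclic electron flow around photosystem I. In WT it was at 0.279 to 0.560 (median 0.411). Psag replicates 1 to 6 were at 0.502 to 0.691 (median 0.580), partly inside the WT range, and replicates 7 and 8 at 1.64 and 1.38, above the other 14 arrays. The difference was 0.53 on the log2 scale with the first 6 psag arrays and 1.83 with the last 2. Of subunits fixed in lists for comparison, 1 of 16 loci of photosystem I and its antenna, 2 of 10 of photosystem II and 1 of 12 of the photosystem II antenna had a probe of their own. None of these 4 (PSAN, PSBW, PSBY and LHB1B2) is among the 40 genes. With all psag arrays 0 of the 4 passed in limma in either direction. An unadjusted limma p under 0.05 was seen for 1 of the 4 and for 437 of all 3438 probes. The difference with replicates 7 and 8 was 1.45 for PSAN, 0.75 for LHB1B2, -2.38 for PSBW and -0.76 for PSBY on the log2 scale. These differences did not pass in limma either.

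AT2G31800 encodes a protein kinase of the integrin-linked kinase-like family. It measured 1.26 to 1.81 in WT (median 1.54) and 1.97 to 3.36 on psag replicates 1 to 6 (median 2.16), where replicates 5 and 6 were highest. Replicates 7 and 8, at 0.658 and 1.16, lay below every WT array.

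AT5G05400 encodes a nucleotide-binding leucine-rich repeat protein, the class of intracellular immune receptors. WT arrays were at 0.335 to 0.671 (median 0.482) and psag replicates 1 to 6 at 0.682 to 0.859 (median 0.748). Replicates 7 and 8 were at 0.160 and 0.298, again below WT. A similar order held for AT5G49840, which encodes a ClpX-type chaperone of mitochondrial protein breakdown. Its WT range of 0.876 to 1.58 overlapped with 1.49 to 1.82 on psag replicates 1 to 6, and replicates 7 and 8 gave 0.441 and 0.626.

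AT2G46850 belongs to the protein kinase superfamily. Its highest WT array was at 1.04 and its lowest of the first 6 psag arrays at 1.04, so the groups were barely apart. Replicates 7 and 8, at 0.560 and 0.578, were below all WT arrays, a difference of -0.49 on the log2 scale. FBL17 encodes an F-box protein that marks inhibitors of cyclin-dependent kinases for breakdown and so allows cell division. It was dim, with 0.248 to 0.438 in WT (median 0.356), 0.415 to 0.528 on psag replicates 1 to 6 (median 0.457), and 0.371 and 0.576 on replicates 7 and 8. WT and psag arrays of FBL17 overlapped, and psag replicate 7 was within the WT range.

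AT4G05070 encodes a small protein of a wound-responsive family. It had the largest mean difference of the 40 genes, 1.49 on the log2 scale with psag replicates 1 to 6, and also the most uneven WT values. WT replicates 1 to 4 were at 1.46, 1.01, 1.31 and 0.793, and WT replicates 5 to 8 at 0.306, 0.168, 0.302 and 0.241. Psag replicates 1 to 6 ranged from 0.972 to 2.08 (median 1.73), and replicates 7 and 8 were at 1.63 and 1.62. WT replicates 1, 2 and 3 reached into the range of the first 6 psag arrays. Between same-numbered pairs the log2 difference was 0.64 and 0.74 for the first 2 pairs, and 2.20 and 2.43 for the last 2.

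AT1G20130, of the GDSL lipase family of secreted hydrolases, had 0.858 to 1.21 in WT (median 1.07) and 1.37 to 2.13 on psag replicates 1 to 6 (median 1.66), with no overlap. Its replicates 7 and 8 disagreed, at 1.43 and 0.561, on either side of WT. AT2G15440, of a family that acts in xylan synthesis, was at 0.801 to 1.29 in WT (median 1.02), 1.23 to 1.82 on psag replicates 1 to 6 (median 1.42), and 1.43 and 1.44 on replicates 7 and 8. The differences were alike on both sets of psag arrays, 0.47 and 0.45 on the log2 scale. The exostosin-family glycosyltransferase gene AT1G34270 was at 0.65 and 0.94 in the same order. For AT2G48130, a lipid transfer protein of the GPI-anchored type, these values were 0.46 and 1.06.

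AT4G24090, to which no role is assigned here, was far above WT on the last psag arrays alone. WT arrays lay between 0.742 and 1.01 (median 0.838), psag replicates 1 to 6 between 0.895 and 1.21 (median 1.03), and replicates 7 and 8 at 2.62 and 2.77. The first 6 psag arrays overlapped WT, while the last 2 were above all other arrays.

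The remaining 14 genes are given by their log2 differences from WT, first with psag replicates 1 to 6 and then with replicates 7 and 8. On both sets of psag arrays the mean was above WT for AT3G16760, of the tetratricopeptide repeat family (0.57 and 1.06), and for AT1G72020 (0.68 and 1.58). The same held for AT5G03900 (0.63 and 1.88), AT5G66780 (0.44 and 0.97) and AT4G30740 (0.50 and 0.69). It also held for AT2G23390 (0.30 and 0.67) and AT5G06790 (0.43 and 1.08). For all 7, both replicates 7 and 8 were above all WT arrays. The mean of replicates 7 and 8 was below WT for AT1G06510 (0.91 and -0.46), AT4G16410 (0.45 and -0.42) and AT5G52530 (0.76 and -0.48). Below WT there were also AT1G73470 (0.29 and -0.22) and AT2G37880 (0.40 and -0.31). The FLZ zinc finger gene AT5G49120 had 0.27 and -1.03, and AT4G20300 had 0.45 and -0.01, the last being at the WT level on replicates 7 and 8. For AT5G63830, named above, the second value was 0.47.

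**Figure D3:**
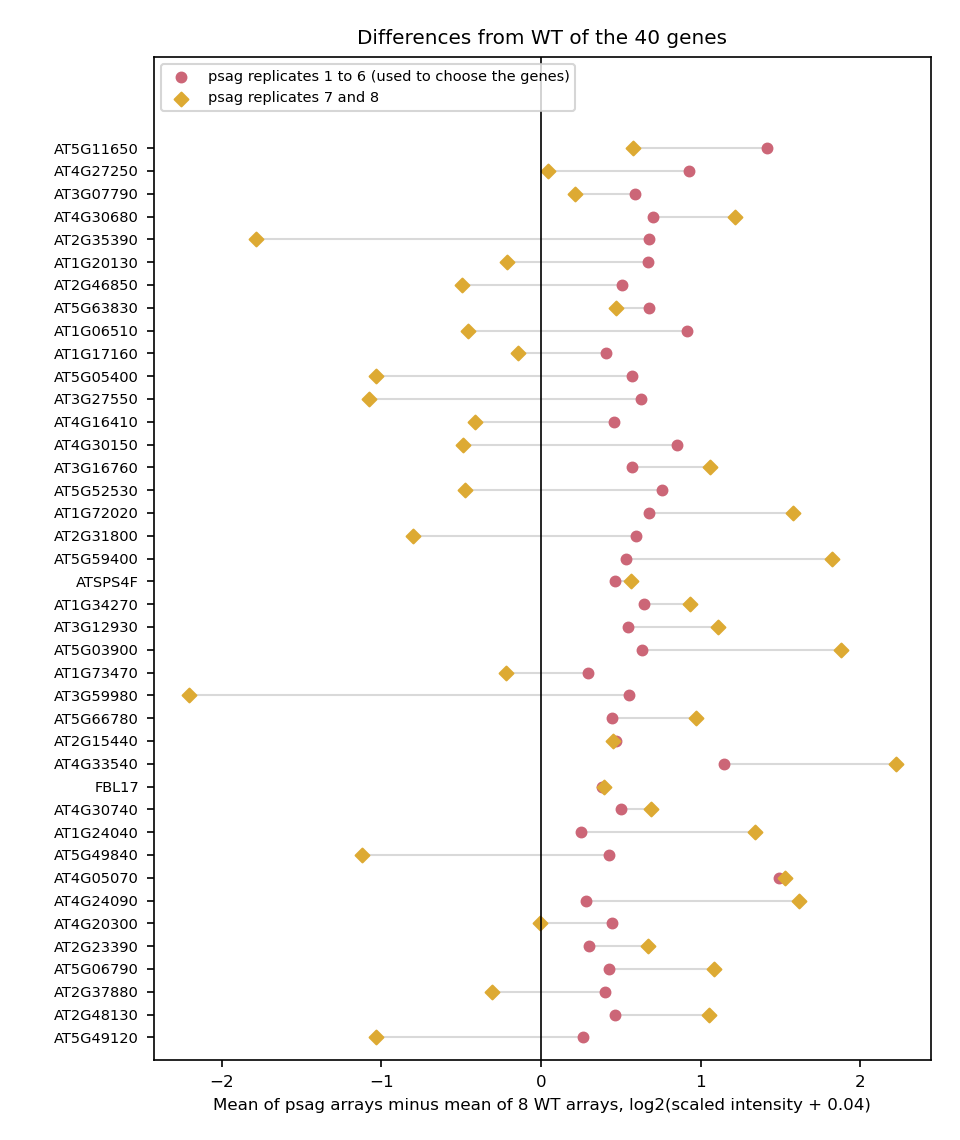
Difference from the mean of 8 WT arrays on the log2(scaled intensity + 0.04) scale for each of the 40 genes, in order of the statistic that chose them. Red circles are the mean of psag replicates 1 to 6, from 0.25 to 1.49, and yellow diamonds the mean of psag replicates 7 and 8, from -2.21 to 2.22, joined by grey lines.

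Psag replicates 7 and 8 were compared with WT because they took no part in the choice, while the WT arrays did. Low WT values of a gene enter both the choice and this comparison, so it is independent of the choice on the psag side alone. Both arrays were above all 8 WT arrays for 19 of the 40 genes, or 47.5% (all probes, 22.5%, and the other 306 genes of moderate level, 23.5%). They were below all 8 for 9, or 22.5% (all probes, 18.8%, and the other 306, 30.1%), and they overlapped WT for 12. The median difference of the 40 genes was 0.42 on the log2 scale, with quartiles of -0.46 and 1.06, against -0.09 for the other 306 genes of moderate level and 0 for all probes. Without any scaling between arrays the median of the 40 genes was -0.041, where that of all probes was -0.18. With median centring these medians were 0.44 and 0.31, so the distance from all probes depended on the scaling. The plot of differences shows how widely the genes spread on these 2 arrays.

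Replicates 7 and 8 were averaged to 1 measurement and set against 4 WT measurements, each the mean of neighbouring replicates, in a limma fit across 3438 probes. Neighbours were averaged because they deviated together from the psag mean, at correlations of 0.44 to 0.69, and in WT at 0.35, -0.12, 0.08 and 0.58. The psag mean includes replicates 7 and 8, which stand apart, so a shared deviation is partly built into the psag correlations. They therefore do not show that neighbours belong together. The single psag measurement was assumed to vary like the WT measurements, so all the spread comes from WT. That was not tested, these 2 arrays stand apart from all others, and each p-value below holds only under that assumption. Of the 40 genes 3 were higher at an adjusted p under 0.05, or 7.5%, where the share of all probes was 6.63%. Another 3 were lower, where the share of all probes was 8.35%. Both counts were near the background of this fit. With single arrays, which take neighbours as separate measurements, 40% of the 40 genes and 16.3% of all probes were higher. Over all probes 228 were higher and 287 lower, and without scaling between arrays 75 and 347.

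The genes that passed as higher on psag replicates 7 and 8 were AT5G59400, AT1G24040 and AT4G24090. AT4G24090 went from -0.17 ± 0.08 in WT (SD, n = 4) to 1.45 on the log2 scale, a difference of 1.62 ± 0.10 (SE; limma, adjusted p = 0.0104). AT1G24040 went from 0.18 ± 0.02 (SD, n = 4) to 1.52, the mean of replicates 7 and 8, which differs by 1.34. These 2 arrays read 1.79 and 1.24. The gap between them does not enter the fit, where all the spread is that of WT. For AT5G59400, the PGRL1 relative, the WT level of -1.20 ± 0.30 (SD, n = 4) compared with 0.63, a difference of 1.83 ± 0.30 (SE; limma, adjusted p = 0.0385). Of the 6 genes that passed in either direction, AT4G24090 alone did so in all 16 alternative fits. Without scaling the call was lost for AT1G24040 (limma, adjusted p = 0.0596) and for AT5G59400 (limma, adjusted p = 0.0828). The latter was also lost without any 1 of the 4 WT measurements (limma, adjusted p = 0.0603 to 0.106).

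The genes that passed as lower were AT3G59980, AT2G35390 and AT3G27550, each of which had been chosen as higher in the first 6 psag arrays. AT3G59980 went from 1.36 ± 0.11 in WT (SD, n = 4) to -0.85, a difference of -2.21 on the log2 scale. Its replicates 7 and 8 read -1.10 and -0.60. For the phosphoribosyl pyrophosphate synthetase gene AT2G35390 the values were 0.03 ± 0.14 (SD, n = 4) and -1.76, with a difference of -1.79 ± 0.15 (SE; limma, adjusted p = 0.0123). AT3G27550, of the CRM family, differed by -1.08 ± 0.20 (SE; limma, adjusted p = 0.0460). Its call was lost without any 1 of the 4 WT measurements (limma, adjusted p = 0.0585 to 0.119), with median centring (0.101), without scaling (0.0794) and with limma-trend (0.0722). That of AT2G35390 was lost without WT replicates 1 and 2 or without 3 and 4. With single arrays and the replicate number as a block, the calls of AT2G35390, AT3G59980 and AT1G24040 were lost. The labels do not say that numbers pair the samples.

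With all psag arrays as 4 measurements against 4 of WT, 0 of the 40 genes passed in limma, where 0.262% of all probes were higher at the adjusted threshold. An unadjusted limma p under 0.05 was seen for 21 of the 40 genes and for 437 of all 3438 probes. No gene of the 40 passed with limma-trend either. Without psag replicates 7 and 8, 4 passed, where 1.66% of all probes were higher, and with 16 single arrays 21 passed, where 6.22% were. Nothing is read from these counts, because 6 of the 8 psag arrays and all WT arrays chose the genes.

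The choice took no account of position or gene length. Of the 40 genes, 7 lie on chromosome 1, 7 on chromosome 2, 6 on chromosome 3, 10 on chromosome 4 and 10 on chromosome 5 of assembly TAIR10.1. The other 306 had 69, 54, 60, 66 and 55 in the same order. The median gene length was 2342 bases for the 40 genes (531 to 7751) and 2009 for the 304 others with a listed length. The closest members were AT4G30680 and AT4G30740, with 6 loci between them. Within psag replicates 1 to 6 the median SD of a gene was 0.17 on the log2 scale and within WT 0.27, against 0.21 and 0.34 for the other genes of moderate level, and a small SD favours a high statistic.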

How the data were processed

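Total RNA of 8 WT and 8 psag samples was measured on 1 array each. The authors deposited 1 intensity per probe and array on a linear scale with a maximum of 100, a unit inferred from the values. The scanner, background correction and scaling are not given in the sources used here, and no measure of detection was analysed. With so few arrays, precision is limited by their number.

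Names of probes came from the platform annotation held by GEO, and symbols from RefSeq's TAIR10.1 genes. All 40 genes matched, and 2 had a symbol other than the locus name. The rule for values by array named genes with a symbol or described function in these tables. Because that gave 2, values by array were also printed for genes with a role known as background and for AT4G24090, chosen after their values were seen. The genes, lists and comparisons were chosen with earlier results of these data known. No sequence of the genes or probes was used here.

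Scaled intensities were taken as log2(x + 0.04), which understates changes of dim probes. Neighbouring replicates were averaged. A fit in limma 3.58.1 (R 4.3.3; lmFit, then eBayes) covered 3438 probes, with 1 second probe of a locus left out, two-sided p-values adjusted by Benjamini-Hochberg over all probes and a threshold of 0.05. These p-values rest on the spread between measurements, some of which may be technical repeats. Roles of genes are background and were not tested as groups. Other scalings, pseudocounts, filters, units of replication and left-out measurements were tried.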

Additional observations from a re-analysis of the deposited data

Results flagged for a closer look

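Over 80 groups of 8 arrays, the 40 genes in each genotype, 3 held an array far from the other 7. This looks for a single array, so it cannot flag replicates 7 and 8 where they deviate together. The count is not set against chance, because a small spread favoured the choice of these genes. The gap to the nearest array, as a share of the group's range, was 0.667 for AT1G20130, where psag replicate 8 was at -0.73 and the other psag arrays at 0.50 to 1.12 on the log2 scale. It was 0.656 for AT1G73470, where psag replicate 7 was at -0.07 and the others at 0.57 to 0.90. For AT4G05070 it was 0.529, with psag replicate 6 at 0.02 and the others at 0.58 to 1.08.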

How the results depend on the processing

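The rule took 32 to 40 of the same 40 genes under other scalings and pseudocounts, with probes at 0 left out, without any 1 pair of arrays or with limma's moderated t. It took 23 with all 8 psag arrays and 25 when genes were ranked by mean difference, and 10 genes were taken under all 16 settings. The difference of each gene between psag replicates 1 to 6 and WT moved by less than 1 SD in all 560 recomputed values, and none changed sign. Relative to WT, the median of all probes on psag replicates 7 and 8 was 0.31 with median centring and -0.18 without scaling. The median of the 40 genes was 0.44 with median centring and turned to -0.041 without scaling. In both settings the 40 genes were 0.14 above all probes, against 0.42 with scaling by the 75th percentile.

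For psag replicates 7 and 8 against WT, 515 probes passed. The count was 1174 with single arrays and 129 to 457 when 1 WT measurement was left out. It was 180 without WT replicates 1 and 2, 191 without 3 and 4, 129 without 5 and 6 and 457 without 7 and 8. Of the 40 genes, 3 passed as higher (7.5%, all probes 6.63%), against 5 with quantile normalization (12.5%, all probes 8.7%) or median centring (12.5%, 6.89%) and 1 without scaling (2.5%, 2.18%). There were 6 without the dimmest 25% of probes (15%, 8.46%) and 16 with single arrays (40%, 16.3%). Leaving out 1 measurement or array gave 2 to 5 (5% to 12.5%, all probes 1.37% to 7.3%). In the 6 genes that passed, no difference changed direction in 16 alternatives, and 18 of 96 values lost the call. For all psag arrays against WT, 10 probes passed. The count was 0 with median centring, without probes at 0 throughout or without the dimmest 25% (380, 412 and 331 at an unadjusted limma p under 0.05), 1 with limma-trend, 334 with single arrays and 0 to 75 when 1 measurement was left out, with 75 without psag replicates 7 and 8 and 0 to 3 without any other. The cause was not tested.

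With the replicate number as a block, single arrays gave 748 probes for replicates 7 and 8, 10 of the 40 genes as higher (25%, all probes 12.2%) and a median of 0.48. The calls of AT2G35390 (limma, adjusted p = 0.0855), AT3G59980 (0.0564) and AT1G24040 (0.0917) were lost under this block. A block of pair positions gave 0 probes for all psag arrays, where 473 had an unadjusted limma p under 0.05. Deviations of same-numbered arrays correlated at 0.0903 to 0.201, over 0.1 for 6 of 8 numbers, and 7 of 8 arrays of each genotype correlated best with their own number. The labels do not say that numbers pair the samples. Dim signals limit the genes with WT intensities near 0.2, since no background measure was analysed here.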
